A study of Homo sapiens with 64 samples.

Results

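Glutathione is made, broken down and spent by a small set of genes, and 10 of them are described here across NCI-H295R cells depleted of NNT: SLC7A11, GCLC, GCLM, GSS, CHAC1, GGT1, GPX4, AIFM2, ACSL4 and LPCAT3. They were taken by name from the 26364 genes in the count files, and all 10 were found and passed the filter on low counts. NCI-H295R is a steroid-producing human line from a carcinoma of the adrenal cortex. NNT, nicotinamide nucleotide transhydrogenase, sits in the inner membrane of mitochondria and makes NADPH, and the series asked what its knockdown does in this cancer line.

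The groups were cells with an NNT shRNA (4 libraries, although the labels speak of triplicates), cells with a scrambled shRNA (3), cells given the NNT siRNA-2 (3) or the NNT siRNA-3 (3), and cells given a scrambled siRNA (3). The siRNA cells were taken 72 h after transfection. For the shRNA cells no time is stated, nor whether they were a pool or a clone. All 16 libraries came from the 1 cell line, and no other agent or allele is named for any group. Whether replicate libraries were separate cultures is not stated, and a p-value here covers only their spread, which may be technical. Libraries are named by group and by the code in their title, such as 11-1. Levels are given as CPM, counts scaled by a library total that was adjusted with the TMM factors of edgeR. Before filtering and adjustment the totals were 20148231 to 43992833 gene counts a library.

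Glutathione is a tripeptide of glutamate, cysteine and glycine. Cells import cystine, reduce it to cysteine and build glutathione in a pair of enzymatic steps, and NADPH returns oxidized glutathione to its reduced form. GPX4 uses reduced glutathione to turn lipid hydroperoxides into alcohols. Where that fails, peroxides of polyunsaturated phospholipids accumulate and the cell dies by ferroptosis, an iron-dependent death to which adrenocortical cells are known to be sensitive.

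CHAC1 was the one member called against its controls, with siRNA-2 and not with siRNA-3 or the shRNA, in a call that held in 2 of 6 fits that left out a library. Its promoter is shown because it carries a motif that no other member's window held. CHAC1 encodes a cytosolic enzyme that cleaves reduced glutathione, and it is a known target of the stress-response factor ATF4. RefSeq promoter windows (GRCh38.p14, 250 bases before to 50 after a transcript start, 300 bases each) were found for 8 of the 10 members, in 11 windows. SLC7A11 and GSS had none. The letters TGATGNAA, the core bound by ATF4, were searched on both strands and occurred in 1 of the 11 windows, that of CHAC1, and in 3.62% of 35116 promoter windows. The match begins 209 bases before the start and reads on the reverse strand. The letters TGACNNNGC, the core of the antioxidant response element bound by NRF2, occurred in 3 of the 11 windows (those of GCLM and AIFM2 and 1 of the windows of GGT1) and in 13.3% of all windows. A match is a run of letters and says nothing of binding in these cells. The windows of CHAC1 (chr15:40953221-40953520, plus strand) and of GCLM (chr1:93909381-93909680, minus strand), a member with the other motif whose libraries overlapped its controls in each knockdown, are printed 5′ to 3′ with the matched letters in capitals.
CHAC1: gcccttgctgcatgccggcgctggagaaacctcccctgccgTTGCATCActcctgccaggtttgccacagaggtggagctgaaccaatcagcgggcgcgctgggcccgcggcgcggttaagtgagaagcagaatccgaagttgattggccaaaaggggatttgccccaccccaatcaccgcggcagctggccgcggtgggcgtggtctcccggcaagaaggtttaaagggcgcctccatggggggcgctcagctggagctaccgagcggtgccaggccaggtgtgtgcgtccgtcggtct
GCLM: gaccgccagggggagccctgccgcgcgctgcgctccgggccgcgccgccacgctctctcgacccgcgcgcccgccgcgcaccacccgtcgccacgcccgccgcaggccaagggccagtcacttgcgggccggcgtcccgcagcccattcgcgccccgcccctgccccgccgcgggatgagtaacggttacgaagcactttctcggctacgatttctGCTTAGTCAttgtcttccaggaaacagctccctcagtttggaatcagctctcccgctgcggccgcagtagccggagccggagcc

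NNT was measured first because it checks the labels. Its level was 371 ± 49.9 CPM (SD, n = 3) with the scrambled shRNA and 31.8 ± 2.95 CPM (SD, n = 4) with the NNT shRNA. It was 337 ± 35.7 CPM (SD, n = 3) with the scrambled siRNA and 38.6 ± 8.28 CPM (SD, n = 3) with siRNA-3. The 3 siRNA-2 libraries were uneven, at 233 CPM (11-12), 187 CPM (16-1) and 49.9 CPM (11-1). Against the controls NNT fell by 3.13 in log2 with siRNA-3 (SE 0.35, adjusted p = 0.000172), and the value of -1.11 with siRNA-2 missed the threshold (SE 0.32, adjusted p = 0.0777). Library 11-1 of siRNA-2 held the least NNT of its group, and it also had the highest share of reads in no gene, 16.5% against 11.3% in the lowest library of the series. Markers of the adrenal cortex summed to 3238 to 5081 CPM over the 16 libraries (9 genes, all 9 with a count in every library), while 4 endothelial and 4 blood markers summed to at most 0.285 and 0.703 CPM.

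Per kilobase of the longest coding transcript, GPX4 was the most abundant member. Over the 6 scrambled libraries it had 222 ± 14.8 CPM per kilobase (SD), and GCLM followed with 38.7 ± 4.63. From GCLC (26.5 ± 4.37) through LPCAT3 (21.5 ± 5.45), GSS (18.9 ± 0.849) and ACSL4 (15.4 ± 2.94) to SLC7A11 (8.30 ± 3.02 CPM per kilobase), each gene's range overlapped that of the next. CHAC1 (1.41 ± 0.388) and GGT1 (1.27 ± 0.278) overlapped each other, and AIFM2 was lowest at 0.562 ± 0.105 CPM per kilobase. CHAC1, GGT1 and AIFM2 thus rested on few reads, with 32 to 247 counts a library.

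In the shRNA cells none of the 10 members passed the test. The comparison asked which transcripts differ in cells with a hairpin against NNT, and 3 of 15201 genes (0.0197%) passed in the quasi-likelihood test of edgeR (adjusted p under 0.05), which gave every adjusted p printed here. No member had an unadjusted p under 0.05, against 217 genes in all, and DESeq2 also called 0 members. The members' log2 fold changes ran from -0.16 (AIFM2) to 0.20 (CHAC1) with a median of -0.02, beside a median of 0.01 over all genes tested. In no member were the 4 knockdown libraries clear of the 3 controls, where 3.19% of all genes were. NNT itself fell by 3.54 in log2 (SE 0.32, adjusted p = 2.36e-05).

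The intervals say how large a change the shRNA libraries leave room for. GPX4 had a log2 fold change of 0.02 with a 95% interval from -0.17 to 0.21, and GCLM one of -0.03 from -0.23 to 0.16. The interval was widest for CHAC1, from -0.38 to 0.78, and SLC7A11 had one from -0.58 to 0.39. A change of CHAC1 by up to 1.72-fold upward is therefore within the interval in these cells.

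**Figure D1:**
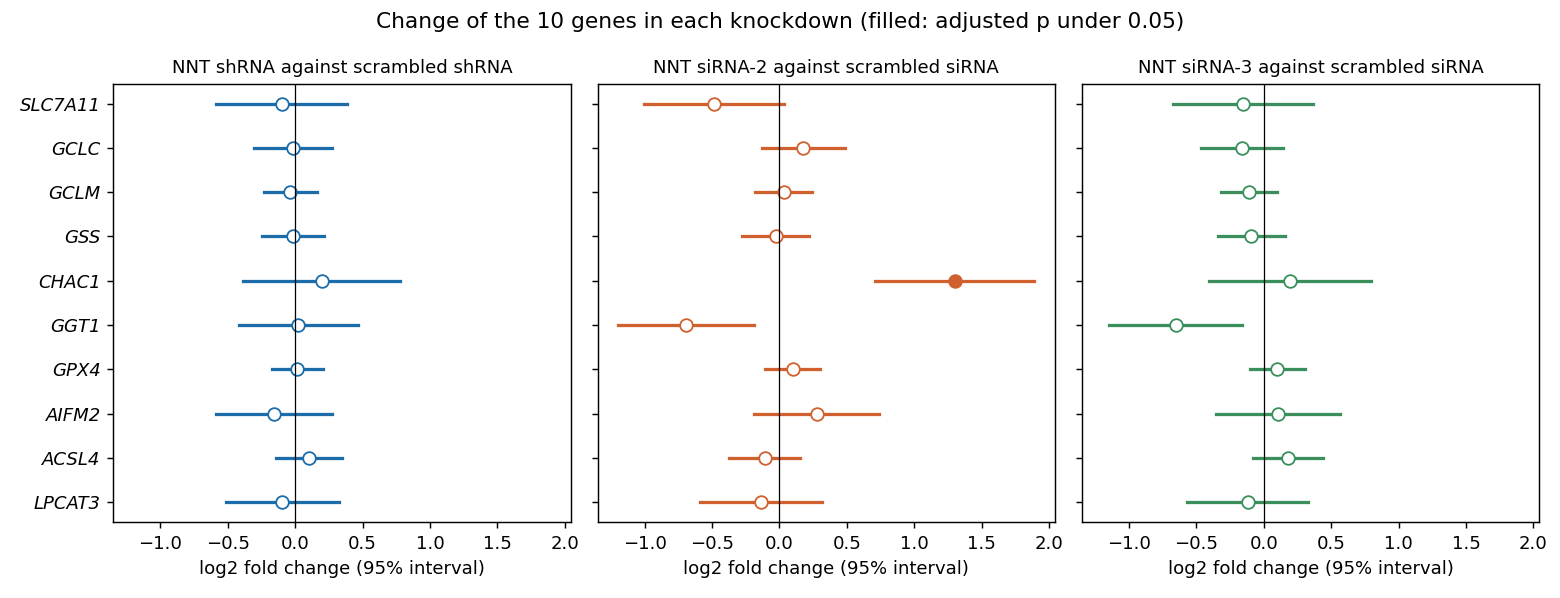
Log2 fold change of the 10 genes (horizontal axis) for each knockdown (shRNA, siRNA-2, siRNA-3) against its scrambled control, from edgeR, with 95% intervals as lines. The filled point, CHAC1 with siRNA-2 at 1.30, is the one with an adjusted p under 0.05; the GGT1 points lie at -0.69 and -0.65 for the siRNAs and at 0.02 for the shRNA.

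With siRNA-2, CHAC1 rose and the enzymes of glutathione synthesis did not pass the test. CHAC1 stood at 3.56, 2.86 and 2.69 CPM in the scrambled siRNA libraries 16-1, 23-5 and 30-11. With siRNA-2 it stood at 5.24 (11-12), 10.0 (11-1) and 7.20 CPM (16-1). All 3 siRNA-2 libraries lay above all 3 controls. The group means were 7.49 ± 2.41 and 3.04 ± 0.463 CPM (SD, n = 3 each). The fold change was 1.30 on the log2 scale (SE 0.28, edgeR adjusted p = 0.0291), or 2.46-fold with a 95% interval from 1.63 to 3.71. CHAC1 was the 1 of 10 members called, where 1.97% of all genes were called (299 of 15201), and 2 of the 10, CHAC1 and GGT1, did not overlap their controls, beside 22.4% of all genes. The members' median log2 fold change was 0.00, beside 0.01 over all genes tested.

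The CHAC1 call was narrow. It was lost without siRNA-2 library 11-1 (log2 fold change 1.041, adjusted p = 0.142), without scrambled library 16-1 (1.425, 0.0784), 23-5 (1.248, 0.126) or 30-11 (1.221, 0.06), and when the siRNA-2 and scrambled siRNA libraries were fitted alone (1.291, 0.204), and over all alternatives the adjusted p ran from 0.000828 (DESeq2) to 0.204. The log2 fold change was at least 1.041 in every one of these fits. Markers of chromaffin or neural cells (6 genes) had sums between 57.3 and 71.6 CPM in the siRNA-2 libraries. Their sums were between 43.9 and 50.3 CPM in the scrambled siRNA libraries and between 33.0 and 43.9 CPM in the siRNA-3 libraries. They lay between 53.8 and 65.7 CPM with the NNT shRNA and between 50.6 and 52.4 CPM with the scrambled shRNA. CHAC1 did not pass the test in the shRNA cells. The 4 fibroblast markers had sums of 13.2 to 21.8, 12.0 to 15.3 and 8.09 to 11.4 CPM in the same order. CHGA, CHGB and SYP made up nearly all of the chromaffin or neural sum. PNMT had no count in any library, and TH and DBH had counts in 4 and 3 of the 16 libraries. The part of these markers in the CHAC1 result was not tested. In bulk RNA, fewer cells of a type and less RNA per cell cannot be told apart.

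With siRNA-3, which left less NNT than siRNA-2, CHAC1 did not pass. Its libraries read 3.24 (11-1), 4.53 (23-5) and 2.71 CPM (30-11), which overlapped the controls. The log2 fold change was 0.20 (SE 0.29, adjusted p = 0.772) with a 95% interval from -0.41 to 0.80. The difference between the siRNAs was tested directly: siRNA-2 exceeded siRNA-3 in CHAC1 by 1.10 in log2 (SE 0.27, adjusted p = 0.0122), and the 3 libraries of each did not overlap. This call was lost without siRNA-2 library 11-1 (0.8452, adjusted p = 0.0735), without siRNA-3 library 11-1 (1.05, 0.0561) and with those 2 groups fitted alone (1.107, 0.0544), within a range of 0.00146 to 0.0735 over the alternatives. NNT was also higher in the siRNA-2 libraries, by 2.02 (SE 0.34, adjusted p = 0.00111).

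CHAC1 followed the order of NNT, in reverse, inside the siRNA-2 group but not across groups. Within siRNA-2, CHAC1 was 5.24 CPM in 11-12 (NNT 233 CPM), 7.20 CPM in 16-1 (187 CPM) and 10.0 CPM in 11-1 (49.9 CPM). These are 3 libraries, and their order was not tested. Across groups the 7 libraries with the NNT shRNA or siRNA-3 had less NNT than any siRNA-2 library (28.7 to 47.8 CPM against 49.9 CPM and above), and their CHAC1 (1.98 to 4.53 CPM) lay below the lowest siRNA-2 library.

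**Figure D2:**
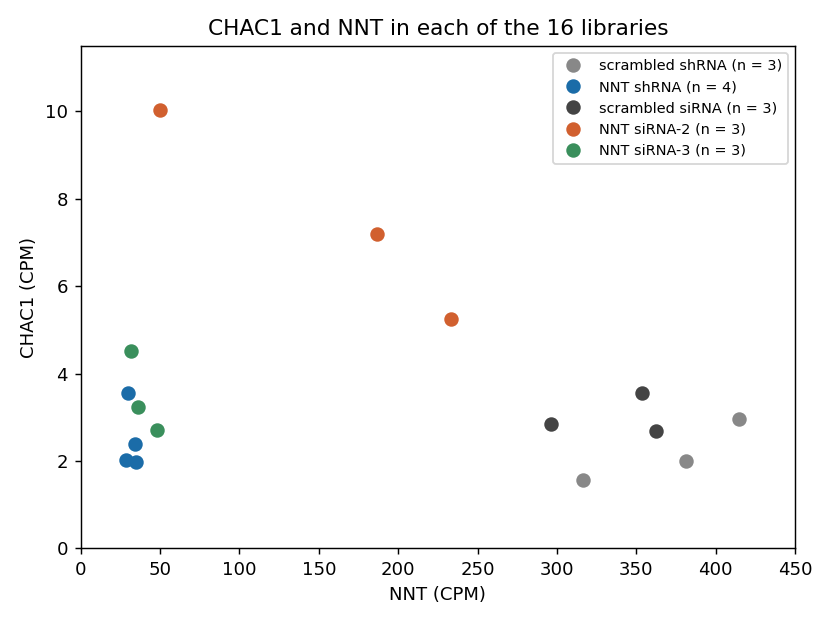
CHAC1 (vertical axis, CPM) against NNT (horizontal axis, CPM), 1 point a library, coloured by group. The 3 siRNA-2 libraries lie highest, between 5.24 and 10.0 CPM of CHAC1, while the shRNA and siRNA-3 libraries with NNT at 47.8 CPM or less have at most 4.53 CPM.

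Of the genes whose log2 CPM followed CHAC1 most closely over the 16 libraries, FEM1A had a Pearson r of 0.939, CALM3 one of 0.915 and SOCS7 one of 0.911. These are descriptions over libraries that share groups and title codes. Because the 3 genes were picked for following CHAC1, no test of them is given. Among the members themselves, CHAC1 was most like GCLC (r = 0.728), followed by GPX4 (r = 0.675). GCLC and GPX4 had r = 0.717 with each other. CHAC1, GCLC, GPX4 and AIFM2 were each highest in siRNA-2 library 11-1.

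GGT1, the ectoenzyme that cleaves extracellular glutathione so that its cysteine can be taken up, gave low values with both siRNAs but passed no test. In the scrambled siRNA libraries 16-1, 23-5 and 30-11 it stood at 3.21, 3.84 and 3.09 CPM. With siRNA-2 it stood at 2.00 (11-12), 2.02 (11-1) and 2.27 CPM (16-1), and with siRNA-3 at 1.73 (11-1), 2.76 (23-5) and 2.02 CPM (30-11). Each of the 6 knockdown libraries lay below each control. The log2 fold changes were -0.69 (SE 0.24, adjusted p = 0.126, 95% interval -1.19 to -0.19) and -0.65 (SE 0.23, adjusted p = 0.147, -1.14 to -0.16), and both comparisons share the same 3 control libraries. For the mean of both siRNAs, a comparison added after the values had been seen, it was -0.67 (SE 0.20, adjusted p = 0.153). That comparison called 0.23% of all genes and 0 members (2 members and 1988 genes had an unadjusted p under 0.05, and DESeq2 called 0 members), and 4.49% of genes did not overlap.

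With the shRNA, GGT1 read 3.48, 4.13, 2.76 and 3.09 CPM in libraries 18-3, 19-2, 2-3 and 24-2 and 2.89, 4.52 and 2.47 CPM in the scrambled libraries 18-3, 19-2 and 24-2. The groups overlapped and the log2 fold change was 0.02 (SE 0.21). The difference between the shRNA effect and the mean of the siRNA effects was 0.70 for GGT1 (SE 0.29, 95% interval 0.08 to 1.31) and missed the threshold (adjusted p = 0.802). In that test 0 members passed with either edgeR or DESeq2, 1 member and 907 genes had an unadjusted p under 0.05, and 0.00658% of genes were called. GGT1 has near-identical copies, of which GGT3P had at most 0.434 CPM, and it shares 306 exon bases on the same strand with SNRPD3, which reached 255 CPM. How reads in such stretches were assigned is not given, so its level is uncertain.

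SLC7A11, the exchanger subunit that brings in cystine, was high in libraries of certain title codes, knockdown and control alike. Its scrambled siRNA libraries read 77.0 (16-1), 136 (23-5) and 81.3 CPM (30-11). The siRNA-3 libraries read 62.1 (11-1), 132 (23-5) and 70.7 CPM (30-11), and the siRNA-2 libraries 65.9 (11-12), 85.9 (11-1) and 58.8 CPM (16-1). Both 23-5 libraries were far above the rest and differed from each other by a ratio of 0.974, and the groups overlapped. The log2 fold change was -0.49 with siRNA-2 (SE 0.25, adjusted p = 0.302) and -0.15 with siRNA-3 (SE 0.25, adjusted p = 0.796). Within code 16-1 the ratio of siRNA-2 to control was 0.763, and within 30-11 that of siRNA-3 to control was 0.869. The 11-1 libraries did not go together. That of siRNA-2 was the highest of its group and that of siRNA-3 the lowest of its group, a ratio of 1.38. With the shRNA it read 48.3 (18-3), 69.6 (19-2), 58.6 (2-3) and 55.1 CPM (24-2), against 55.7 (18-3), 72.5 (19-2) and 58.0 CPM (24-2) with the scrambled shRNA. Again both 19-2 libraries were the highest of their groups, and the same-code ratios were 0.868, 0.961 and 0.951.

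**Figure D3:**
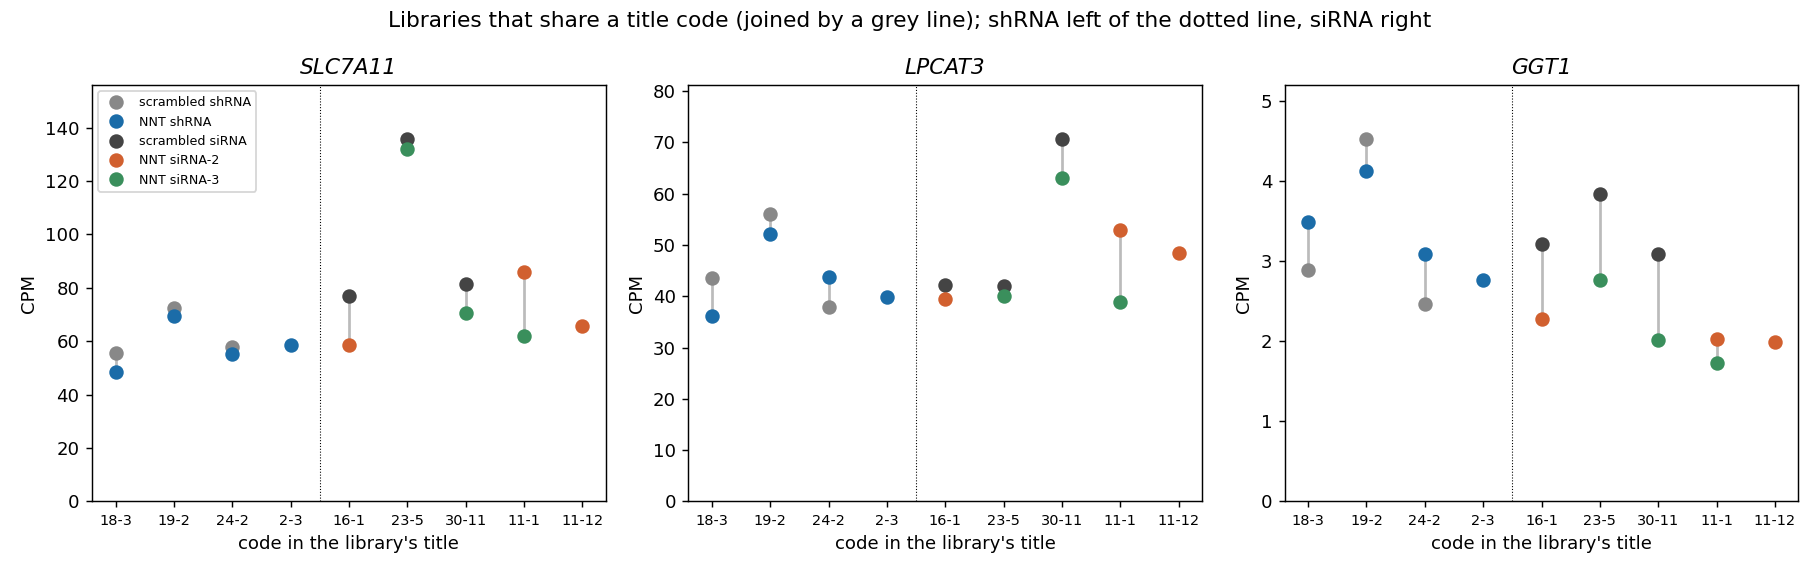
SLC7A11, LPCAT3 and GGT1 (vertical axes, CPM) by the code in the library's title (horizontal axis), coloured by group, with libraries of 1 code joined by a line. The 23-5 libraries stand together at 132 and 136 CPM of SLC7A11, the 30-11 libraries at 63.1 and 70.6 CPM of LPCAT3, and the 19-2 libraries at 4.13 and 4.52 CPM of GGT1.

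LPCAT3, which places polyunsaturated acyl chains into phospholipids, was high in both libraries of another code. It read 42.1 (16-1), 42.1 (23-5) and 70.6 CPM (30-11) with the scrambled siRNA and 38.9 (11-1), 40.1 (23-5) and 63.1 CPM (30-11) with siRNA-3. Both 30-11 libraries were the high ones. With siRNA-2 it read 48.5 (11-12), 52.9 (11-1) and 39.5 CPM (16-1), so the 11-1 libraries did not go together: the one was the highest of the siRNA-2 group and the other the lowest of the siRNA-3 group, a ratio of 1.36. Its log2 fold changes were -0.13 (siRNA-2), -0.12 (siRNA-3) and -0.09 (shRNA), none past the threshold. In the GENCODE annotation, 3100 exon bases over all LPCAT3 transcripts lie opposite EMG1 (at most 22.8 CPM). The annotation and strand setting of the counting are not given, so how reads there were assigned is not known. The meaning of the title codes is not stated.

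None of the 3 genes that build glutathione passed a test against its controls. GCLC and GCLM are the catalytic and modifier subunits of glutamate-cysteine ligase, the rate-limiting enzyme, and GSS adds glycine. GCLC read 121 (16-1), 122 (23-5) and 95.4 CPM (30-11) with the scrambled siRNA. It read 97.9 (11-12), 171 (11-1) and 114 CPM (16-1) with siRNA-2, where library 11-1 alone was above the controls. It read 106 (11-1), 100.1 (23-5) and 97.4 CPM (30-11) with siRNA-3. The log2 fold changes were 0.18 (SE 0.15, adjusted p = 0.561) and -0.16 (SE 0.15, adjusted p = 0.609).

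Between the siRNAs GCLC was higher with siRNA-2 by 0.34 (SE 0.15, adjusted p = 0.127), which missed the threshold. It passed without siRNA-2 library 11-12 (0.4947, adjusted p = 0.0234), and without library 11-1 it was 0.07171 (adjusted p = 0.739), the ends of the range over its alternatives. In the shRNA groups GCLC lay between 83.9 and 96.5 CPM in all 7 libraries, with a log2 fold change of -0.02 (SE 0.14).

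GCLM ranged from 158 to 216 CPM over the 16 libraries. Its group means lay between 174 ± 9.56 CPM with siRNA-3 and 192 ± 9.06 CPM with siRNA-2 (SD, n = 3 each), and its log2 fold changes were 0.03 with siRNA-2 and -0.11 with siRNA-3. GSS ranged from 40.5 to 57.3 CPM, with log2 fold changes of -0.03 with siRNA-2 and -0.09 with siRNA-3. In the test between the siRNAs 1 of 10 members passed, CHAC1, where 14.4% of all genes did, and 3 did not overlap (GCLM, CHAC1 and ACSL4), where 31.6% of all genes did not.

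GPX4 and AIFM2 stand for the main lines of defence against lipid peroxides. GPX4 ranged from 205 to 276 CPM, highest in siRNA-2 library 11-1. It had a mean of 227 ± 20.1 CPM with the scrambled siRNA, 243 ± 29.8 CPM with siRNA-2 and 243 ± 25.1 CPM with siRNA-3 (SD, n = 3 each). The log2 fold change was 0.10 in both (SE 0.10), with 95% intervals from -0.10 to 0.30, so that a rise above 1.23-fold lay outside both. AIFM2, also called FSP1, regenerates ubiquinol at membranes without glutathione. It ranged from 1.24 to 2.46 CPM, and its log2 fold changes were -0.16 (shRNA), 0.28 (siRNA-2) and 0.10 (siRNA-3), none past the threshold.

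ACSL4, which activates arachidonic and adrenic acid for entry into phospholipids, read differently with the 2 siRNAs but passed no test. It read 83.2 (16-1), 92.6 (23-5) and 104 CPM (30-11) with the scrambled siRNA. With siRNA-2 it read 80.4 (11-12), 93.4 (11-1) and 86.1 CPM (16-1), and with siRNA-3 108 (11-1), 97.0 (23-5) and 112 CPM (30-11). Every siRNA-3 library lay above every siRNA-2 library, and both groups overlapped the controls. The difference between the siRNAs was -0.29 (SE 0.12, adjusted p = 0.129). Against the controls the values were -0.11 (SE 0.12) with siRNA-2 and 0.18 (SE 0.12) with siRNA-3. With siRNA-3, 0 members passed while 2.12% of all genes did (1 member and 2706 genes had an unadjusted p under 0.05, and DESeq2 called 0 members), and GGT1 alone did not overlap its controls, beside 21.1% of all genes.

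**Figure D4:**
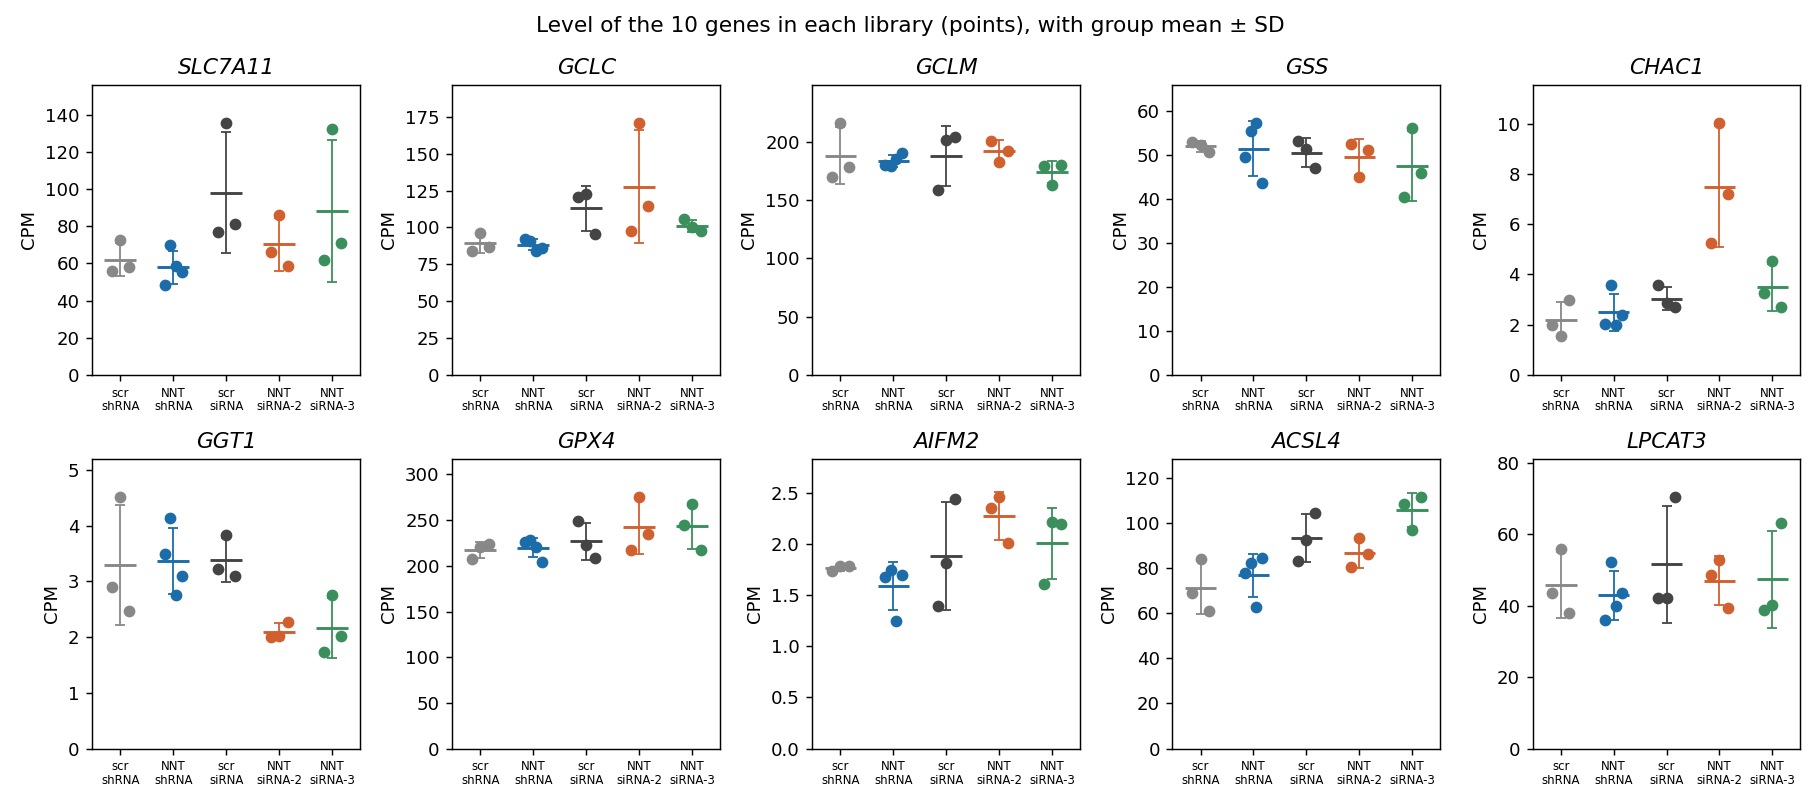
CPM of the 10 genes in each of the 16 libraries (points; vertical axes start at 0), by group, with the group mean and SD. CHAC1 is highest in the 3 siRNA-2 libraries (7.49 ± 2.41 CPM), GGT1 has its lowest group means with siRNA-2 and siRNA-3 (2.10 ± 0.153 and 2.17 ± 0.534 CPM), and in the other genes the knockdown libraries overlap their controls.

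The control groups read at different levels for some members, though none passed the test. SLC7A11 was higher in all 3 scrambled siRNA libraries (98.0 ± 32.7 CPM) than in all 3 scrambled shRNA libraries (62.1 ± 9.08 CPM), a log2 difference of 0.66 (SE 0.25, adjusted p = 0.180). ACSL4 was higher by 0.39 (SE 0.12, adjusted p = 0.120) and GCLC by 0.34 (SE 0.15, adjusted p = 0.242), each with overlapping libraries. With 0 of the 10 members called, 1.74% of all genes were; 3 members and 2557 genes had an unadjusted p under 0.05, DESeq2 called 0 members, and 24.2% of all genes did not overlap. Delivery, time and handling cannot be told apart between these groups.

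Around the members, 99 further genes were listed in 8 groups, and 90 had enough counts to be tested. The lists were chosen with earlier results of these data known, so their shares beside those of all genes are descriptions and no test. With the shRNA 0 of 90 passed (1 had an unadjusted p under 0.05, and DESeq2 called 0), and with siRNA-3 also 0 (13 unadjusted, 2 by DESeq2). With siRNA-2, 5 passed (5.56%, beside 1.97% of all genes), 3 higher and 2 lower, while 22 had an unadjusted p under 0.05 and DESeq2 called 10. None of the 6 genes of cystine and cysteine supply and none of the 7 genes that insert selenocysteine, the residue in the active site of GPX4, passed in any comparison with edgeR. With siRNA-2, 3 of the 6 and 1 of the 7 had an unadjusted p under 0.05, and DESeq2 called 1 and 0. Between the 2 control groups 2 of the 90 passed (2.22%, near the 1.74% of all genes), with 14 unadjusted and 4 by DESeq2: BACH1 was higher with the scrambled siRNA by 0.60 (SE 0.14, adjusted p = 0.0321) and the glutathione peroxidase GPX1 had -0.31 (SE 0.08, adjusted p = 0.0428), each called in 1 of 6 fits that left out a library, so that single libraries of either group ended both calls.

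The siRNA-2 calls fell among iron handling, lipid synthesis and stress regulators. HMOX1, heme oxygenase, stood at 12.7, 12.8 and 14.1 CPM in the scrambled libraries and at 18.4 (11-12), 52.2 (11-1) and 25.2 CPM (16-1) with siRNA-2, a rise of 1.27 in log2 (SE 0.26, adjusted p = 0.0247). FTH1, the ferritin heavy chain that stores iron, went from a mean of 1109 CPM to 1981 CPM, a rise of 0.84 (SE 0.18, adjusted p = 0.0284). DDIT3, a transcription factor downstream of ATF4 in the stress response, read 23.5, 16.4 and 12.7 CPM in the scrambled libraries and 21.6 (11-12), 66.6 (11-1) and 32.9 CPM (16-1) with siRNA-2, which overlapped, and rose by 1.20 (SE 0.30, adjusted p = 0.0477). BACH1, a repressor of HMOX1 and of glutathione genes, fell by 0.59 (SE 0.14, adjusted p = 0.0339), from a mean of 48.1 CPM to 31.9 CPM. Its mean with the scrambled shRNA, the other control, was also 31.9 CPM. ELOVL5, an elongase of polyunsaturated fatty acids, fell by 0.86 (SE 0.21, adjusted p = 0.0406). ATF3, another stress factor, had 1.05 (SE 0.32, adjusted p = 0.0909).

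Each of these 5 calls passed in only 2 or 3 of 6 fits that left out 1 library. All 5 were lost without scrambled library 16-1 and without 23-5, and HMOX1 (0.73), FTH1 (0.50), DDIT3 (0.64) and BACH1 (-0.58) also without siRNA-2 library 11-1. ELOVL5 (-0.56 without 11-1) kept its call there and lost it without scrambled library 30-11, as did FTH1 and DDIT3, and BACH1 lost its call without siRNA-2 library 16-1. With only the 2 groups fitted none of the 5 passed. Library 11-1, the highest in CHAC1, was also the highest of all 16 in HMOX1, DDIT3 and FTH1 (2816 CPM) and the lowest in ELOVL5 (79.0 CPM).

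Between the siRNAs 16 of the 90 passed (17.8%), 7 higher and 9 lower with siRNA-2, beside 14.4% of all genes. HMOX1 was higher by 1.89 (SE 0.26, adjusted p = 0.000281), FTH1 by 1.02 (SE 0.18, adjusted p = 0.00173) and NQO1, a quinone reductase induced by NRF2, by 0.74 (SE 0.14, adjusted p = 0.00308). Lower with siRNA-2 were BACH1, with a log2 difference of -0.86 (SE 0.14, adjusted p = 0.00081), ELOVL5 with -1.02 (SE 0.21, adjusted p = 0.00401), the iron importer SLC11A2 with -0.63 (SE 0.10, adjusted p = 0.000954) and the mitochondrial iron-sulfur protein CISD1 with -0.53 (SE 0.11, adjusted p = 0.0051). These 7 passed in all 6 fits that left out a library, and with the 2 groups fitted alone ELOVL5 (adjusted p = 0.0671), CISD1 (0.055) and NQO1 (0.0528) did not. ATF3 (1.26, adjusted p = 0.0148) and DDIT3 (0.95, adjusted p = 0.0383) were lost without siRNA-2 library 11-1 (0.82 and 0.39) and without siRNA-3 library 30-11, and DDIT3 also without siRNA-3 libraries 11-1 and 23-5. HMOX1 and NQO1 with siRNA-3 lay below every control, at 7.44 to 10.1 and 81.1 to 106 CPM, with log2 fold changes of -0.62 (adjusted p = 0.222) and -0.37 (adjusted p = 0.182) that missed the threshold.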

How the data were processed

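Counts of reads per gene, not normalized, were deposited by the authors as 1 file for each of 4 lanes of 16 libraries (64 files). RNA went into stranded, poly(A)-selecting libraries, per the labels' protocols. STAR 2.4.2a, HTSeq 0.6.1p1, DESeq2 1.14.1 and the build hg19 are named in the submitters' processing notes. Neither the annotation nor the counting's strand setting is given in the sources used here.

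Lanes were summed, since they differed by little more than sampling noise (chi-square per degree of freedom 1.00 to 1.04, against 8.11 to 36.7 between the 18 pairs of libraries within groups). Reads in no gene (11.3 to 16.5%), ambiguous reads (1.05 to 1.33%) and reads with several alignments (7.47 to 8.17%) were left out.

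All libraries entered 1 fit in edgeR 4.0.16 (R 4.3.3) with TMM scaling, its low-count filter (minimum count 10), quasi-likelihood tests and Benjamini-Hochberg adjustment over 15201 genes, called under 0.05. Biological variation had a coefficient of 0.118, with 11 residual degrees of freedom. There were 6 planned comparisons and 1 added after the values were seen, the mean of both siRNAs against their control.

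The members and lists were chosen with earlier results of these data known. The rule for named genes took NNT, the members, up to 3 called genes of each list by smallest p, and the 3 genes most correlated with a called member. The values of ATF3 with siRNA-2, and of HMOX1 and NQO1 with siRNA-3, were chosen after they were seen.

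The main fit did not pair libraries by title code. To check for pairing, each library's deviations from the mean of its group were compared across libraries. Same-code shRNA libraries had r = 0.141 (18-3), 0.213 (19-2) and 0.133 (24-2). Pairs of these libraries with different codes had r from -0.180 to -0.020. NNT shRNA 2-3, which has no partner of its own code, had r = 0.156 with scrambled shRNA 24-2. That value is as high as some same-code values, so pairing by code was not established there. Alternatives were RLE scaling, no low-count filter, a stricter one (5 CPM in 3 libraries), a block for the title code, a fit on only the 2 groups at issue, DESeq2 1.42.0, and leaving out each library. Lengths and exon overlaps came from GENCODE on GRCh38, promoters from RefSeq.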

Additional observations from a re-analysis of the deposited data

Results flagged for a closer look

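In the NNT shRNA group, the 4-library group in which a single far library can be tested, the lowest library lay far below the rest for 3 of 24 genes examined: AIFM2 at 1.24 CPM (library 2-3), CISD1 at 57.1 CPM and GLO1 at 263.8 CPM. Chance flags about 1 in 20 such groups.

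The effects of the 2 siRNAs, which share their control libraries, differed by edgeR's test of siRNA-2 against siRNA-3 in NNT, CHAC1 and 12 named genes of the lists. Higher with siRNA-2 were CHAC1 by 1.10 on the log2 scale, NNT by 2.02, ATF3 by 1.26, DDIT3 by 0.95, FTH1 by 1.02, HMOX1 by 1.89, NQO1 by 0.74 and POR, a reductase that feeds electrons to lipid peroxidation, by 0.46. Lower with siRNA-2 were BACH1 with -0.86, CISD1 with -0.53, ELOVL5 with -1.02, the methylglyoxal-clearing enzyme GLO1 with -0.40, the lipoxygenase partner PEBP1 with -0.37 and SLC11A2 with -0.63. GLO1, PEBP1 and POR lost their calls without siRNA-2 library 11-1 (adjusted p = 0.106, 0.08 and 0.0746), GLO1 also without siRNA-3 libraries 11-1 and 30-11, PEBP1 without siRNA-3 library 23-5 and POR without siRNA-3 library 11-1. What sets the siRNAs apart was not tested.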

How the results depend on the processing

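Of 548 values of 44 gene results under other settings, 503 kept their direction and their side of the threshold, 31 changed direction (28 of them when a library was left out), 8 lost a call and 6 gained one. Those that changed direction had main log2 fold changes of at most 0.1976. Leaving out single libraries gave, with the shRNA, SLC7A11 -0.1988 to 0.02691, GCLC -0.05485 to 0.04578, GCLM -0.1036 to 0.07802, GSS -0.07237 to 0.06031, CHAC1 -0.01427 to 0.4611, GGT1 -0.1329 to 0.3139, GPX4 -0.01716 to 0.05397 and LPCAT3 -0.2113 to 0.07525. With siRNA-2 it gave GCLC -0.08948 to 0.333, GCLM -0.07714 to 0.08748, GSS -0.0832 to 0.03734, GPX4 -0.001464 to 0.1699 and LPCAT3 -0.2646 to 0.1502, and with siRNA-3 SLC7A11 -0.5637 to 0.159, GSS -0.226 to 0.01642, CHAC1 -0.03113 to 0.354, AIFM2 -0.06233 to 0.3104 and LPCAT3 -0.3804 to 0.1689. Members called ran from 0 to 1 with siRNA-2 and from 0 to 2 between the siRNAs; with only the groups compared both counts were 0.

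With the title code as a block, GCLC with the shRNA was 0.01045, and GSS and LPCAT3 with siRNA-2 were 0.04271 and 0.0762. Between the siRNAs the block gave 2 members called, GCLC (0.4398, adjusted p = 0.0479) beside CHAC1 (1.26, adjusted p = 0.0203). It changed no other member's call. The 5 siRNA-2 calls among the listed genes also passed with the block, at edgeR adjusted p from 0.00463 (FTH1) to 0.0291 (DDIT3), on 4 residual degrees of freedom. Of the siRNA codes, 23-5 and 30-11 correlated by 0.361 and 0.367 and 11-1 and 16-1 by -0.019 and 0.0144, so that the codes went with shared deviations in the first 2 pairs and not in the others; the cause of the changes was not tested. The block could not be fitted between the scrambled groups, which share no code. Under the stricter filter GGT1 and AIFM2 gave no value, and CHAC1 passed that filter through siRNA-2 libraries.

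Counts of all genes called moved more. With siRNA-2 they were 907 by DESeq2, 490 with the block, 464 with no filter, 1 with only the groups compared and 2 to 619 without single libraries. With siRNA-3 they were 856, 454 with the block, 56 with only the groups and 69 to 530. Between the siRNAs they were 530 with only the groups and 1091 to 2101, between the scrambled groups 658 by DESeq2 and 32 to 456, for the mean of both siRNAs 290 by DESeq2, 85 with no filter, 2 with the block or with only the groups and 2 to 55. With the shRNA the stricter filter and the block each gave 1, and without single libraries 1 to 2. The difference between the shRNA and siRNA effects gave 11 by DESeq2 and 0 to 2 without single libraries. CHAC1, GGT1 and AIFM2 rest on the fewest counts of the members, and every test rests on 3 or 4 libraries a group.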
